A study of Rattus norvegicus with 36 samples.

Results

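The transcripts of 10 heat shock chaperone genes were followed in H9C2 cells, an established line of rat cardiac myoblasts, that carried a miR-125b mimic or 1 of its 3′ variants. The genes were taken by name (*Hspa1b*, *Hspa8*, *Hsph1*, *Dnajb1*, *Bag3*, *Hsp90aa1*, *Hspb1*, *Hspb8*, *Cryab* and *Hspd1*), all 10 were found among the 24275 genes listed, and all 10 passed the filter on low counts in every comparison. Cells received 25 nmol/L of a mimic control (MC), of miR-125b, or of an isomiR, which is the same miRNA with an A added at its 3′ end (Plus A) or with A, AG or AGU removed there (named Trim A, Trim AG and, for the shortest, Trim AGU). After 24 h of transfection they were kept for 24 h in normoxia or hypoxia. By the study's methods, hypoxic cells were in serum-free low-glucose medium and normoxic cells in fresh medium, so oxygen and medium cannot be told apart. Each of the 12 groups of mimic and oxygen had 3 libraries of 1 cell line, and 33 libraries of 11 groups were used, since per-library counts of MC in normoxia were not analysed here.

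Heat shock proteins hold unfolded proteins in solution and help them to fold. Most of their genes are switched on by heat shock factor 1 (HSF1), which binds repeated GAA units, called heat shock elements, in their promoters. The HSP70 proteins work in a cycle with J-domain partners such as that of *Dnajb1* and exchange factors such as those of *Hsph1* and *Bag3*, HSP90 finishes the folding of kinases and receptors, the small heat shock proteins of *Hspb1*, *Hspb8* and *Cryab* bind unfolding proteins without ATP, and HSP60, from *Hspd1*, folds proteins inside mitochondria. In heart muscle, *Cryab*, *Hspb8* and *Bag3* are known for keeping sarcomere proteins intact, and mutations in them cause muscle disease.

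The mimic is given with its seed (bases 2 to 8) in capitals, because the isomiRs share these bases and differ from it at the 3′ end alone. The RefSeq entry shown lies at chr11:29732588-29732609 (+) of GRCr8, and the paper names a further rat locus of miR-125b on chr8.
rno-miR-125b-5p: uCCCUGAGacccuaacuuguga

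The heat shock element was searched for in the RefSeq promoters (GRCr8, 250 bases before to 50 after a gene's start). The genes were chosen by name as heat shock genes, most of which HSF1 is known to switch on through this element. Its share among the members is therefore not independent of that choice. The pairs GAANNTTC and TTCNNGAA each read the same on both strands. A triple (GAANNTTCNNGAA, or TTCNNGAANNTTC on the other strand) contains 2 overlapping pairs. All 7 members in the promoter table held a pair, against 15.9% of the 33469 promoters, and 3 (*Hspa8*, *Hsph1* and *Hspd1*) held a triple, against 0.798%. The *Hspa8* promoter of the table is on chromosome 8, whereas the row named *Hspa8* in the count tables is on chromosome 5, so this promoter belongs to another locus than the row measured under that name. The table gave no promoter for *Hspa1b*, *Cryab* and *Hsp90aa1*. A match is a description of the letters and not a site of HSF1 binding. In the windows below, the matched element is in capitals, and each is given with its coordinates, strand and the distance of its first base before the start.
Hspa8 (chr8:50080451-50080480, +, 55 bases): cggaacccTTCTGGAAGGTTCtaagacagg
Hsph1 (chr12:10427324-10427353, +, 36 bases): gccgcagaTTCTGGAAAGTTCtcctcagta
Hspd1 (chr9:64084253-64084282, -, 237 bases): gccttccgGAAGGTTCTAGAAccgagcgcg
Dnajb1 (chr19:41431134-41431163, -, 11 bases): cgggaggggcgGAAGGTTCtggagggctgg
Hspb1 (chr12:26432392-26432421, -, 109 bases): agatgggggcaGAACCTTCctggccctgcc
Hspb8 (chr12:45837274-45837303, +, 23 bases): agaagccaggaGAAGTTTCtaggcgcgtga
Bag3 (chr1:192533317-192533346, +, 132 bases): ggatgggaccaGAAGTTTCtagccggccag

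Library totals ran from 28361216 to 42672584 counts, with a median of 29923694. Depth went with 1 group: the Hypoxia Trim AG libraries held 39940087 to 42672584 counts, and no other library held more than 34505938. The part of depth in the Trim AG results was not tested. Transcripts of the hypoxia-induced genes *Bnip3*, *Slc2a1*, *Vegfa*, *Adm* and *Ankrd37* did not overlap between oxygen levels (*Bnip3*, at most 47.5 CPM, counts scaled to library depth, in normoxia and at least 148 CPM in hypoxia), whereas *Pdk1* and *Ldha* overlapped. *Egln3* of the same list overlapped too, at no more than 0.309 CPM and at 0 in 12 of 33 libraries. Of the cardiac markers, *Gata4* was at 8.72 to 16.4 CPM, while *Nkx2-5* was at most 0.987 CPM, *Myh6* at most 0.894 CPM, and *Tbx5* was at 0 in 25 of 33 libraries. *Tnni3*, the remaining cardiac marker, was detected in every library, at 0.855 to 3.43 CPM. The skeletal muscle factors *Myod1* (17.1 to 146 CPM) and *Myog* (10.4 to 359 CPM) were present throughout. The 4 skeletal markers together summed to 434 to 455 CPM in MC hypoxia, 39.8 to 113 CPM in the other hypoxia groups and 163 to 196 CPM in normoxia. In MC hypoxia most of this sum was *Myog*, at 342 to 359 CPM. The leukocyte and epithelial markers *Ptprc* and *Epcam* were at most 0.188 and 0.261 CPM. *Cd68*, also listed as a leukocyte marker, was detected in every library, at 0.493 to 2.43 CPM.

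Some libraries stood apart from their groups. *Cav1*, chosen after its values were seen, was at 269, 98.0 and 98.3 CPM in Normoxia Plus A 1 to 3 and at 102, 282 and 263 CPM in Normoxia miR-125b 1 to 3. In hypoxia it was at 93.9 to 100.2 CPM under Plus A and at 241 to 246 CPM under miR-125b. Replicate 1 of each normoxia group was thus at the level of the other mimic, and the member results past the test that use these 2 libraries are also given without them. The library Hypoxia Trim AGU 2 also differed from its group, with 715 CPM of *Hspb1* against 408 and 401 CPM in Hypoxia Trim AGU 1 and 3. The difference was not confined to that gene. Hypoxia Trim AGU 2 detected 16981 genes, against 18663 and 18455, and its TMM scaling factor was 0.886, against 1.005 and 0.989.

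The names of some rows needed care. The row named *Hspa8* (ENSRNOG00000032585, chr5:99031013-99033107) is as long as the stretch it spans, 2095 bases, and so has no intron. A second row, AABR07070032.1 (ENSRNOG00000034066, chr8:44990014-44993179), carries the description of the heat shock cognate protein and the protein accession that RefSeq gives to *Hspa8*, and RefSeq lists 33 *Hspa8* pseudogenes in the rat. The row named *Hspa8* held 1.00 to 2.00% of the counts over it, AABR07070032.1 and LOC680121 together (median 1.75%). AABR07070032.1 held 687 to 1156 CPM, from 41.2 to 87.2 times the named row. The row named *Hsp90aa1* (ENSRNOG00000007219, chr6:135045363-135049728) likewise held 2.69 to 18.9% of the counts over it and LOC103692716 (ENSRNOG00000059714, chr6:135107271-135112775), which is described as HSP90-alpha and held 31.4 to 117 CPM. Coordinates are those of the deposited tables, whose build is not given in the sources used here. How reads were shared between these near-identical loci was not tested, so the named rows are uncertain as measures of the 2 genes. The plot of these loci shows the distance between them.

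**Figure D1:**
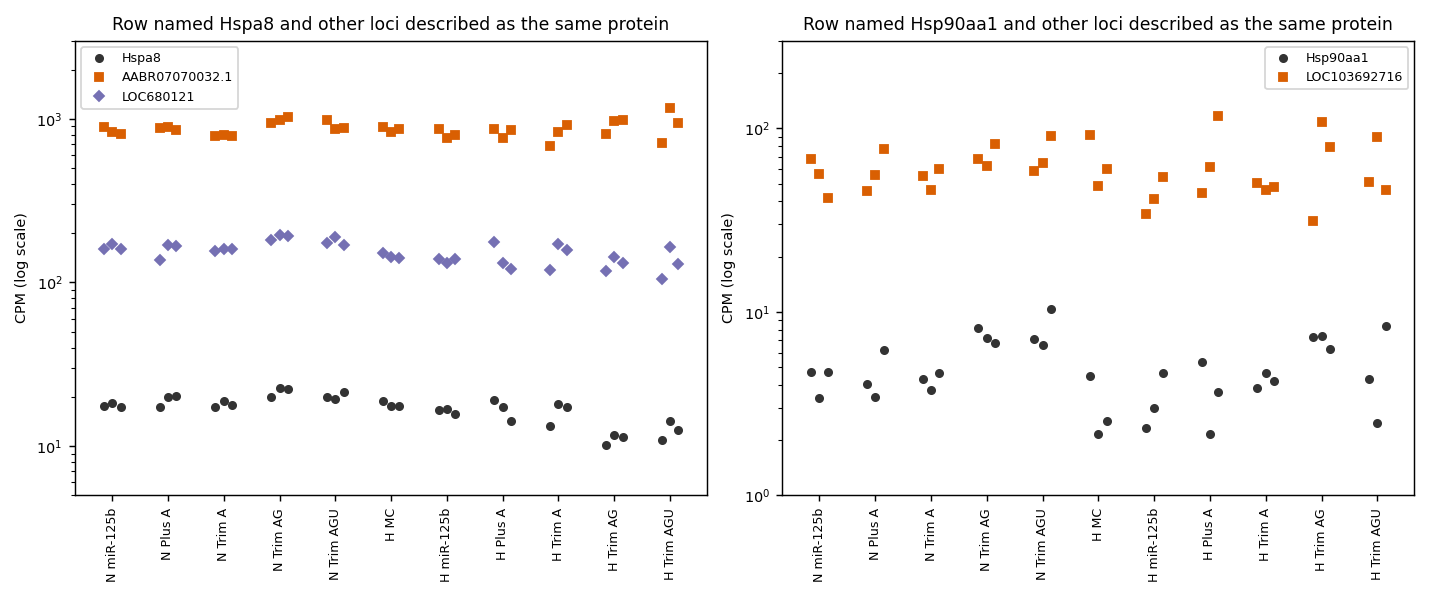
CPM on a log axis in each of the 3 libraries of the 11 groups (N, normoxia; H, hypoxia) for the row named Hspa8 with AABR07070032.1 and LOC680121 (left) and for the row named Hsp90aa1 with LOC103692716 (right). The named Hspa8 row stays between 10.2 and 22.6 CPM in every library while AABR07070032.1 stays between 687 and 1156 CPM.

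*Hspa1b*, an HSP70 gene that stress induces, was low throughout, at 2.45 to 6.35 CPM (1.04 to 2.44 FPKM, which divides by transcript length and so allows levels to be compared between genes). Its near-identical neighbour *Hspa1a* was listed at 0 to 3 counts, with 0 in 15 of 33 libraries, and reads of the pair could be split between them. Per length, *Hspb1* was the highest member, with 342 to 951 FPKM. *Hspd1* ranged from 174 to 350 FPKM, *Cryab*, the small heat shock protein of lens and muscle, from 86.6 to 201 FPKM, and *Hsph1*, the HSP110 exchange factor, from 73.5 to 144 FPKM. *Dnajb1* held 44.4 to 86.3 FPKM and *Bag3* 39.2 to 78.4 FPKM. Each of these ranges overlapped that of the next gene in the order. *Hspb8* was lower, with at most 15.8 FPKM, which is under every value of *Bag3*. Within a gene the highest library exceeded the lowest by 1.87-fold (*Dnajb1*) to 2.59-fold (*Hspa1b*), apart from the row named *Hsp90aa1* with 4.83-fold.

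**Figure D2:**
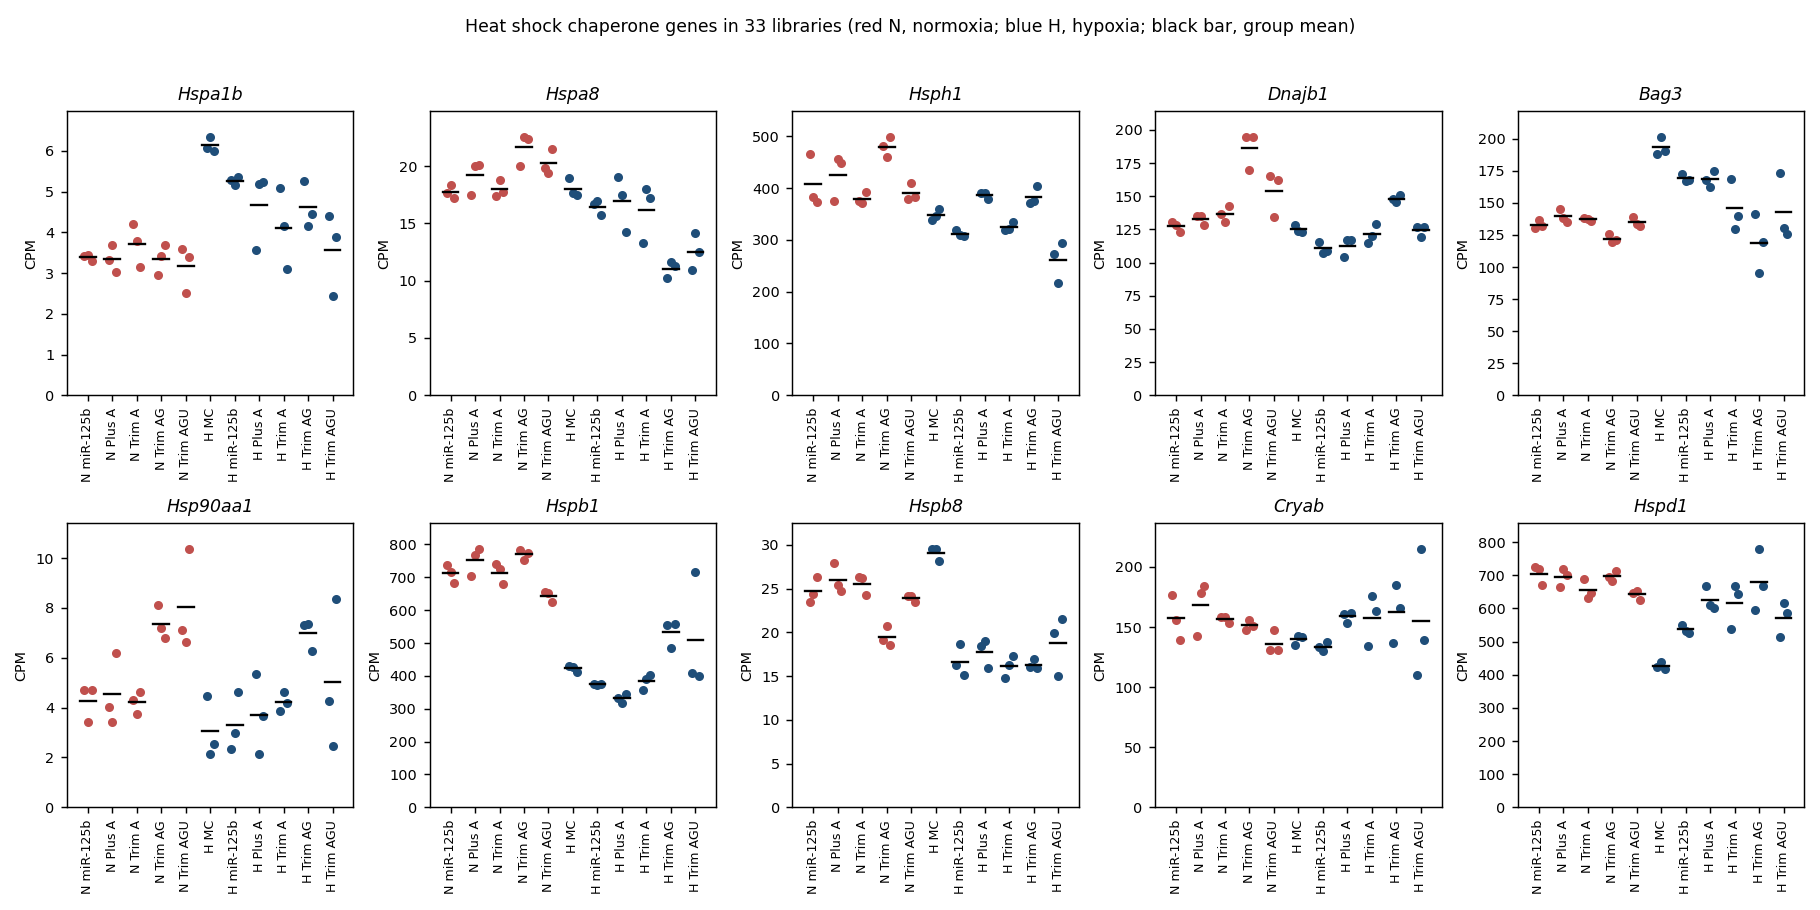
CPM (vertical axes, from 0) of each of the 10 genes in the 3 libraries of each of the 11 groups, red for normoxia and blue for hypoxia, with a black bar at the group mean. Hspb1 lies at 623 to 787 CPM in all 15 normoxia libraries and at 317 to 557 CPM in all hypoxia libraries but Hypoxia Trim AGU 2, and Hspb8 and Hspd1 are, respectively, highest and lowest in the Hypoxia MC libraries among hypoxia groups.

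The first comparison asked how the genes differed between hypoxia and normoxia under 1 mimic. *Hspb1*, a small heat shock protein gene, fell to 0.496 times its normoxia level under miR-125b, and *Hspb8*, which acts with BAG3 in clearing damaged proteins, fell with it. *Hsph1* was lower in hypoxia under all 5 mimics and *Dnajb1* under 4, while *Hspa1b* and *Bag3* were higher under 2 mimics each. A gene was called where edgeR's quasi-likelihood test gave an adjusted p under 0.05 and the fold was at least 1.5, and it passed the test where the adjusted p alone was under 0.05. The 4 skeletal markers summed to 163 to 196 CPM in normoxia and to 39.8 to 113 CPM in hypoxia under these mimics. They did not share a direction. Under miR-125b *Myod1* was at 124 to 137 CPM in normoxia and 41.3 to 42.3 CPM in hypoxia, and *Des* fell with it. *Myog* rose there, from at most 42.3 CPM to at least 63.1 CPM, as did *Chrna1*. Of the 4 markers, 2 were called higher and 2 lower under miR-125b. The part of these markers in the results was not tested. With bulk RNA, fewer cells of a type and less RNA per cell cannot be told apart.

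Under miR-125b 2 of 10 members were called, both lower in hypoxia (20.9% of all genes tested were called, 9.34% higher and 11.5% lower), and 8 passed the test (50.8% of all genes). Under Plus A 2 were called lower (22.8% of all genes were called, 10% higher and 12.8% lower) and 6 passed (49.2%). Trim A also gave 2 lower (26.5% of all genes called, 12% higher and 14.5% lower) with 4 that passed (47.6%). Trim AG gave 1 lower (32.8%, with 15% higher and 17.8% lower) and 6 that passed (54.7%), and Trim AGU 1 lower (27%, with 13.6% higher and 13.4% lower) and 2 that passed (30.2%). The libraries of the 2 oxygen levels did not overlap in 9, 4, 4, 6 and 5 members in that order of mimics, against 61.5, 60.8, 58.8, 63.2 and 52.3% of all genes. The shares of members called were below those of all genes in each case, and the shares past the adjusted p alone were above them under miR-125b, Plus A and Trim AG. The median log2 fold change of the members was -0.38, -0.28, -0.20, -0.16 and -0.27 in that order of mimics, and that of all genes lay between 0.00 and 0.02. The 5 comparisons share no library.

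*Hspb1* was at 739, 716 and 684 CPM in the normoxia libraries of miR-125b and at 374, 373 and 375 CPM in hypoxia. No hypoxia library reached the normoxia range, and the difference was -1.01 ± 0.04 (log2, SE, adjusted p = 3.3e-07 by edgeR). Under Plus A the normoxia values were 705, 769 and 787 CPM and the hypoxia values 334, 317 and 346 CPM, with a difference of -1.29 ± 0.07 (edgeR, adjusted p = 6e-07). Leaving out the doubted normoxia libraries gave -0.99 under miR-125b and -1.36 under Plus A. Under Trim A it was at 740, 724 and 679 CPM against 357, 390 and 403 CPM (-0.97 ± 0.08).

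For Trim AG and Trim AGU the fitted differences of *Hspb1* were smaller in size, and the test between mimics is given with the interactions. With Trim AG the normoxia libraries held 783, 752 and 775 CPM and the hypoxia libraries 555, 485 and 557 CPM, which do not overlap (-0.53 ± 0.08, edgeR, adjusted p = 0.00058). With Trim AGU they held 655, 654 and 623 CPM against 408, 715 and 401 CPM, so that the groups overlapped through 1 library. The difference did not pass the test (-0.28 ± 0.28, edgeR, adjusted p = 0.474), and without Hypoxia Trim AGU 2 it was -0.70 (edgeR, adjusted p = 0.00134).

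*Hspb8* was at 23.5, 24.4 and 26.4 CPM in normoxia and at 16.2, 18.7 and 15.1 CPM in hypoxia under miR-125b. The groups did not overlap (-0.65 ± 0.09, edgeR, adjusted p = 0.00028), nor did they under Plus A (-0.66 ± 0.09) or Trim A (-0.74 ± 0.10). Under Plus A the call ended without Hypoxia Plus A 3, where the difference was -0.58. Trim AG started from a lower normoxia level of 19.1, 20.7 and 18.6 CPM and ended at 16.1, 16.9 and 15.9 CPM. This smaller difference of -0.25 ± 0.09 passed (edgeR, adjusted p = 0.0429) but was lost in 5 of 6 fits that each left out 1 library. *Cryab* passed under miR-125b alone (-0.32 ± 0.08, edgeR, adjusted p = 0.00828), with 177, 156 and 139 CPM in normoxia and 133, 129.6 and 137 CPM in hypoxia. The miR-125b result was lost in 1 fit of all 33 libraries (adjusted p = 0.182). Without the doubted libraries *Cryab* passed under Plus A too (-0.32, edgeR, adjusted p = 0.000788), but the left-out library stood apart from its group in *Cryab* itself.

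Among the partners of HSP70, *Hsph1* was lower in hypoxia by 0.25 to 0.54 on the log2 scale under the 5 mimics, and each passed the test. Under miR-125b it was at 466, 384 and 373 CPM in normoxia and at 320, 310 and 307 CPM in hypoxia. The first of these normoxia libraries is in doubt, and without it the difference was -0.36 in place of -0.47. The result was kept in every fit that left out 1 library under miR-125b and Trim A. It was lost in 4 of 6 such fits under Plus A, where the groups overlapped with all libraries in, in 1 of 6 under Trim AG (without Normoxia Trim AG 3) and in 3 of 6 under Trim AGU (without any 1 of the normoxia libraries).

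*Dnajb1*, whose protein hands substrates to HSP70, was lower in hypoxia by -0.28 ± 0.05 under miR-125b, -0.35 ± 0.06 under Plus A, -0.25 ± 0.08 under Trim A and -0.32 ± 0.08 under Trim AG. All 4 passed the test, of which Trim A was lost in 3 of 6 fits that left out 1 library and Trim AG in 1 of 6 (without Normoxia Trim AG 3). *Bag3*, an exchange factor of HSP70 and a known target of HSF1, moved the other way under miR-125b, from 130.4, 137 and 132 CPM in normoxia to 173, 167 and 168 CPM in hypoxia (0.27 ± 0.04, edgeR, adjusted p = 0.00057). The Plus A difference was 0.16 ± 0.05, lost in 4 of 6 fits that left out 1 library and in 1 fit of all 33 libraries (edgeR, adjusted p = 0.203), and the other 3 did not pass, with values from -0.03 to 0.12.

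*Hspa1b* was also higher in hypoxia under miR-125b, with 3.43, 3.45 and 3.30 CPM in normoxia and 5.29, 5.16 and 5.36 CPM in hypoxia. The groups did not overlap (0.55 ± 0.13, edgeR, adjusted p = 0.00689). Under Trim AG it passed with 0.47 ± 0.17 (edgeR, adjusted p = 0.0394) and was lost in 5 of 6 fits that left out 1 library. *Hspd1* was lower by -0.48 ± 0.05 under miR-125b (edgeR, adjusted p = 3e-05) and by -0.26 ± 0.06 under Plus A (adjusted p = 0.00716), where the groups overlapped, and it did not pass under the trimmed isomiRs.

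The row named *Hspa8* was called lower under Trim AG, from 20.0, 22.6 and 22.3 CPM in normoxia to 10.2, 11.6 and 11.3 CPM in hypoxia (-0.96 ± 0.10, edgeR, adjusted p = 7e-05). Under Trim AGU it was called with -0.64 ± 0.19 (edgeR, adjusted p = 0.0378), and the call was lost in 5 of 6 fits that left out 1 library. In AABR07070032.1, where most of these counts lie, the Trim AG difference was -0.09 (adjusted p = 0.47) and the Trim AGU difference 0.10 (adjusted p = 0.767, edgeR). The fall of the named row was therefore not seen in the main locus. LOC680121 was lower under Trim AG by -0.54 (edgeR, adjusted p = 0.00134). Without the doubted library the named row also passed under Plus A (-0.38, adjusted p = 0.0302).

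Without the doubted library, the other differences under miR-125b were -0.69 for *Hspb8*, -0.23 for *Cryab*, -0.27 for *Dnajb1*, 0.25 for *Bag3*, 0.56 for *Hspa1b* and -0.45 for *Hspd1*. Under Plus A they were -0.63 for *Hspb8*, -0.36 for *Hsph1*, -0.36 for *Dnajb1*, 0.17 for *Bag3* and -0.31 for *Hspd1*. Each of these passed the test, with adjusted p from 1.49e-05 to 0.0247 by edgeR.

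**Figure D3:**
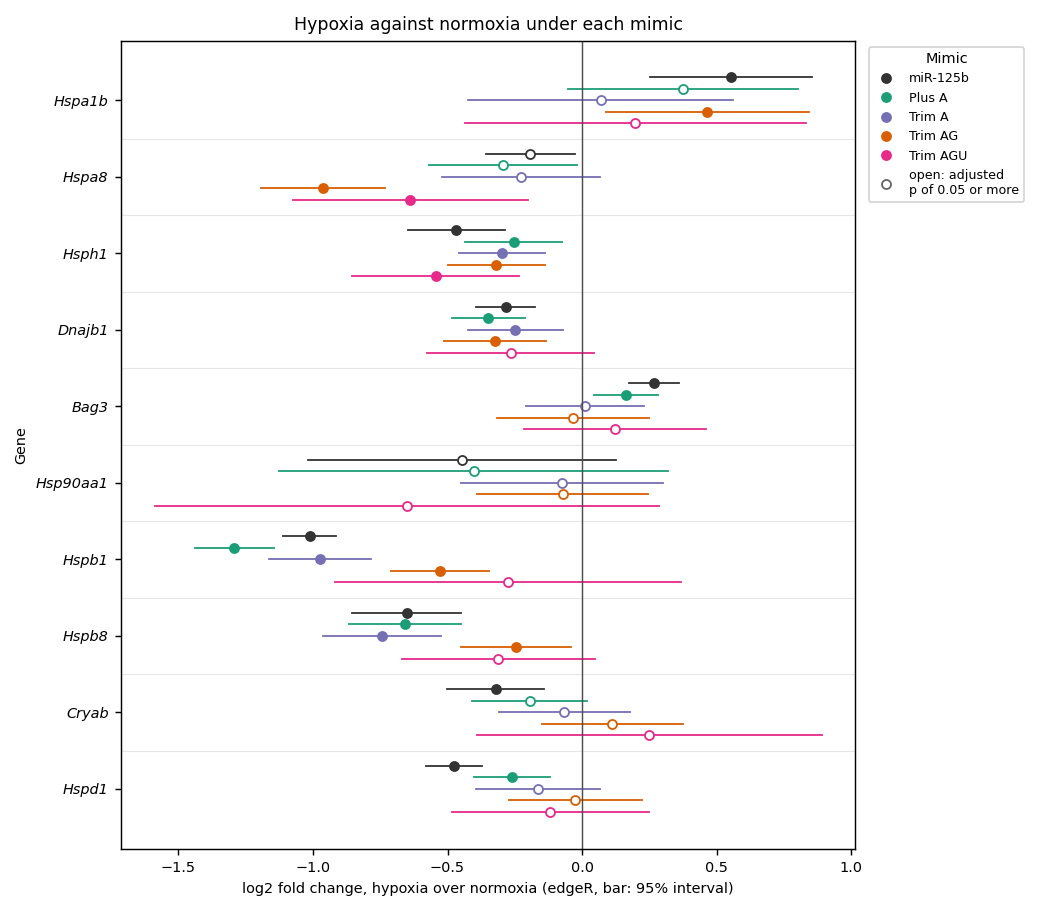
Log2 fold change of hypoxia over normoxia (horizontal axis) for each of the 10 genes and 5 mimics, with the 95% interval of the edgeR fit and open points where the adjusted p was 0.05 or more. Hspb1 lies furthest below 0 under Plus A (-1.29) and its interval includes 0 under Trim AGU.

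The next comparison set each mimic against MC in hypoxia, and all 5 share the same 3 MC libraries. *Hspb8* was lower under every mimic and *Hspd1* higher under every mimic. *Bag3* passed the test as lower under 4 mimics. Some myogenic transcripts differed in these comparisons, while *Des* overlapped between MC (1.65 to 1.98 CPM) and miR-125b (1.42 to 1.87 CPM). All 4 skeletal markers, *Myod1*, *Myog*, *Chrna1* and *Des*, were detected in every library, and *Myog* was at 342 to 359 CPM in MC hypoxia against 10.4 to 64.7 CPM in the other hypoxia groups. Their part in the results was not tested.

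Under miR-125b 1 of 10 members was called (21.9% of all genes were called) and 6 passed the test (59.5%). Plus A also had 1 called (24.8%) and 6 that passed (56.6%), Trim A 1 called (28.1%) and 4 that passed (52.1%), and Trim AG 5 called (37.2%) and 8 that passed (59.4%). In Trim AGU no member was called by edgeR (23.8% of all genes were), 2 passed (29.9%), 4 had an unadjusted p under 0.05, and DESeq2 called 2. Shares of members past the test were thus near those of all genes but for Trim AG, where 80% of the members passed. The libraries did not overlap with MC in 8, 8, 6, 9 and 6 members, in the order miR-125b, Plus A and the isomiRs by length trimmed, against 65.1, 63.4, 60.8, 66.8 and 55.1% of all genes. The median log2 fold change of members was -0.13, -0.10, -0.07, 0.24 and -0.07 in that order, and that of all genes between -0.02 and 0.00.

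*Hspb8* held 29.6, 29.6 and 28.2 CPM in MC. It held 16.2, 18.7 and 15.1 CPM under miR-125b, 18.4, 19.0 and 15.9 CPM under Plus A, 14.7, 16.3 and 17.3 CPM under Trim A, 16.1, 16.9 and 15.9 CPM under Trim AG and 20.0, 15.0 and 21.5 CPM under Trim AGU. All 15 mimic libraries lay below the 3 of MC. The differences were -0.77 ± 0.08, -0.69 ± 0.08, -0.81 ± 0.09, -0.77 ± 0.08 and -0.49 ± 0.13 (log2, SE), with adjusted p from 7.1e-06 to 0.0323 by edgeR. The 4 called differences passed in each alternative, and the Trim AGU result was lost in 3 of 6 fits that left out 1 library (any 1 of MC).

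*Hspd1* showed the opposite order. MC held 425, 438 and 416 CPM, miR-125b 550, 533 and 527 CPM, Plus A 669, 611 and 600 CPM, and Trim AG 595, 780 and 667 CPM. No library of the 5 mimics fell below 513 CPM. The differences from MC were 0.37 ± 0.03, 0.58 ± 0.05, 0.58 ± 0.10, 0.74 ± 0.11 and 0.57 ± 0.14, of which the Trim AG difference was called (edgeR, adjusted p = 0.00044). With 1 library left out, the Plus A and Trim A values passed the fold of 1.5 in 3 of 6 and 2 of 6 fits. The Trim AGU result was lost in 4 of 6 such fits.

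*Bag3* was highest in MC, at 188, 202 and 191 CPM. Trim AG held 142, 95.2 and 120 CPM, a difference of -0.64 ± 0.13 (edgeR, adjusted p = 0.00219) that fell to -0.52 and under the fold threshold without Hypoxia Trim AG 2. The difference was -0.16 ± 0.03 under miR-125b, -0.18 ± 0.05 under Plus A and -0.36 ± 0.10 under Trim A, and the last was lost in 2 of 6 fits that left out 1 library (Hypoxia MC 2 or Hypoxia Trim A 3). Trim AGU, with 173, 130 and 126 CPM, did not pass (-0.30 ± 0.13, edgeR, adjusted p = 0.127). *Hspa1b* was also at its highest in MC, with 6.08, 6.35 and 6.01 CPM, and passed as lower under Trim A alone (-0.54 ± 0.19, edgeR, adjusted p = 0.0417), a result lost in 5 of 6 such fits.

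The mimics differed in direction for *Hspb1* and *Hsph1*. *Hspb1*, at 431, 428 and 411 CPM in MC, was lower by -0.14 ± 0.03 under miR-125b and by -0.33 ± 0.05 under Plus A (edgeR, adjusted p = 0.00179 and 0.00017), and higher by 0.39 ± 0.08 under Trim AG (adjusted p = 0.00233). Under Trim AGU the difference was 0.43 ± 0.28 with all libraries and 0.01 without Hypoxia Trim AGU 2, and neither passed. *Hsph1* was lower under miR-125b (-0.12 ± 0.03) and higher under Plus A (0.17 ± 0.04) and Trim AG (0.20 ± 0.07), the last being lost in 4 of 6 fits that left out 1 library. *Dnajb1* passed as lower under miR-125b (-0.14 ± 0.04) and as higher under Trim AG (0.31 ± 0.07), where its libraries held 148, 145 and 151 CPM against 128, 124 and 123 CPM. *Cryab* passed under Plus A alone (0.21 ± 0.05). Without Hypoxia Trim AGU 2, *Hsp90aa1* (1.14), *Hspa8* (-0.54) and *Hspa1b* (-0.49) passed against MC for Trim AGU (edgeR, adjusted p = 0.0315, 0.0056 and 0.0337). In 1 fit of all 33 libraries the differences of *Hsph1*, *Dnajb1*, *Hspb1* and *Bag3* under miR-125b no longer passed, with adjusted p from 0.158 to 0.499 by edgeR. Nor did those of *Hsph1*, *Hspb1*, *Cryab* and *Bag3* under Plus A, with adjusted p of 0.132, 0.0725, 0.39 and 0.139.

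The row named *Hsp90aa1* was called higher under Trim AG, with 7.34, 7.36 and 6.26 CPM against 4.46, 2.15 and 2.54 CPM in MC (1.26 ± 0.26, edgeR, adjusted p = 0.00283). The far more abundant LOC103692716 differed by 0.20 (adjusted p = 0.689) in the same comparison. It was called lower under miR-125b (-0.59, edgeR, adjusted p = 0.032), although its libraries overlapped, with 91.4, 48.6 and 59.7 CPM in MC and 34.3, 41.4 and 54.0 CPM under miR-125b. The row named *Hspa8* was called lower under Trim AG (-0.64 ± 0.10, edgeR, adjusted p = 0.00058), against a difference of 0.16 (adjusted p = 0.187) in AABR07070032.1. Without Hypoxia Trim AG 1 the named row fell under the fold threshold, at -0.58.

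**Figure D4:**
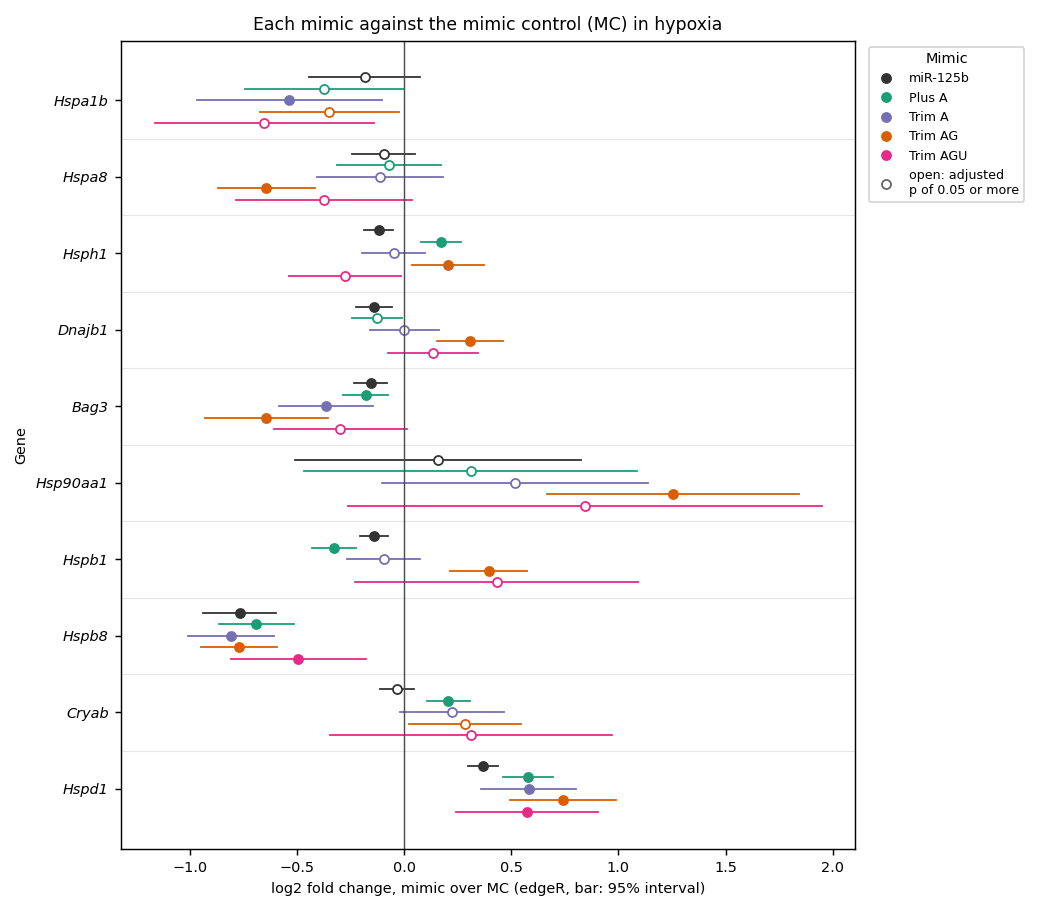
Log2 fold change of each mimic over MC in hypoxia (horizontal axis) for the 10 genes, with the 95% interval of the edgeR fit and open points where the adjusted p was 0.05 or more. Hspb8 lies below 0 (-0.81 to -0.49) and Hspd1 above 0 (0.37 to 0.74) for all 5 mimics, while Hspb1 lies on both sides.

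The isomiRs were then compared with miR-125b directly. The comparisons within an oxygen level share the 3 miR-125b libraries. Under Trim AG *Dnajb1* was higher in both oxygen levels and *Bag3* lower in both, whereas no member passed the test under Trim A. In hypoxia 1 of 10 members was called for Trim AG (19.3% of all genes) and 7 passed the test (41.4%). Plus A had 0 called and 4 that passed (2.03 and 15.9% of all genes), each with an unadjusted p under 0.05, and DESeq2 called 0 as well. For Trim A and Trim AGU no member passed in edgeR or DESeq2, and 1 in each had an unadjusted p under 0.05. Of all genes, 0.873% were called and 2.19% passed for Trim A, and 3.75% were called and 4.15% passed for Trim AGU.

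In hypoxia *Dnajb1* was at 148, 145 and 151 CPM under Trim AG and at 115, 108 and 109 CPM under miR-125b. These do not overlap (0.44 ± 0.06, edgeR, adjusted p = 0.00116). In normoxia it was at 194, 170 and 195 CPM against 130, 128 and 123 CPM (0.50 ± 0.07, adjusted p = 0.00036). *Hspb1* was higher in hypoxia under Trim AG by 0.53 ± 0.07 (edgeR, adjusted p = 0.00082), whereas in normoxia the difference was 0.07 ± 0.05 (adjusted p = 0.326). *Hsph1* was higher by 0.31 ± 0.07 in hypoxia. In normoxia its difference was 0.19 with all libraries and did not pass, and 0.30 without the doubted library (edgeR, adjusted p = 0.109 and 0.00222). That library stood apart from its group in *Hsph1* itself.

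*Bag3* was lower under Trim AG than under miR-125b, by -0.50 ± 0.12 in hypoxia (edgeR, adjusted p = 0.0121) and by -0.17 ± 0.05 in normoxia, the latter lost in 3 of 6 fits that left out 1 library and in 1 fit of all 33 libraries (adjusted p = 0.24). *Hspb8* did not pass in hypoxia (-0.01 ± 0.10) and was lower by -0.39 ± 0.08 in normoxia (edgeR, adjusted p = 0.00426). *Hspd1* was higher by 0.36 ± 0.11 in hypoxia, lost in 4 of 6 such fits. The row named *Hsp90aa1* was called higher in hypoxia (1.09 ± 0.24) and normoxia (0.74 ± 0.16), the latter lost in 1 fit of all 33 libraries (edgeR, adjusted p = 0.109), while LOC103692716 did not pass in either (0.78 and 0.31, edgeR, adjusted p = 0.139 and 0.165). The row named *Hspa8* was lower in hypoxia (-0.56 ± 0.10, edgeR, adjusted p = 0.00261) and higher in normoxia (0.24 ± 0.08, adjusted p = 0.0424), the latter lost in 5 of 6 fits that left out 1 library and in 1 fit of all 33 (adjusted p = 0.17). AABR07070032.1 differed by 0.20 (edgeR, adjusted p = 0.131) in hypoxia and 0.18 (adjusted p = 0.0364) in normoxia. Without the doubted library the normoxia differences were 0.53 for *Dnajb1*, -0.42 for *Hspb8*, -0.18 for *Bag3* and 0.82 for *Hsp90aa1*, which passed, and 0.24 for *Hspa8*, which did not (edgeR, adjusted p = 0.0711).

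In normoxia 1 of 10 members was called for Trim AG (13.9% of all genes) with 5 that passed (38.5%), and 1 for Trim AGU (11.4%) with 1 that passed (25%). The called gene was the row named *Hsp90aa1* in both, with 0.90 ± 0.21 under Trim AGU (edgeR, adjusted p = 0.0145). That call was lost without Normoxia Trim AGU 3 or Normoxia miR-125b 2 (adjusted p = 0.0528 and 0.0534), and without the doubted library the difference was 0.98 (edgeR, adjusted p = 0.0337). Trim A had no member called or past the test (0.414% of all genes were called and 1.92% passed), none with an unadjusted p under 0.05 and none in DESeq2. For Plus A no gene of 14781 was called (0%), and no member had an unadjusted p under 0.05 in edgeR or passed in DESeq2.

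The normoxia comparison of Plus A rests on the doubted libraries. *Hsph1* was at 375, 456 and 448 CPM in Normoxia Plus A 1 to 3 and at 466, 384 and 373 CPM in Normoxia miR-125b 1 to 3. *Cryab* was at 142, 178 and 184 CPM and at 177, 156 and 139 CPM. In both genes replicate 1 of each group lay at the other group's level. Without these 2 libraries *Hsph1* was higher under Plus A by 0.28 and *Cryab* by 0.32, and both passed (edgeR, adjusted p = 0.0118 and 0.0233). The libraries were doubted from values of these data, and *Hsph1* and *Cryab* were among the genes that set them apart. Leaving them out favours a difference in these genes, so the 2 results are no independent evidence. In hypoxia, where no library was in doubt for these mimics, *Hsph1* was higher under Plus A by 0.29 ± 0.04 and *Cryab* by 0.24 ± 0.04 (edgeR, adjusted p = 0.00157 and 0.00673). *Hspd1* was also higher there (0.21 ± 0.05) and *Hspb1* lower (-0.19 ± 0.04), which were lost in 3 of 6 and 4 of 6 fits that left out 1 library. None of these 4 hypoxia differences passed in 1 fit of all 33 libraries (edgeR, adjusted p = 0.0973 for *Hsph1*, 0.613 for *Cryab*, 0.387 for *Hspd1* and 0.609 for *Hspb1*).

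Whether the oxygen difference itself differed between an isomiR and miR-125b was tested as an interaction. For Trim AG 1 of 10 members was called (11.3% of all genes) and 3 passed (22.7%). The oxygen difference of *Hspb1* was smaller in size under Trim AG than under miR-125b (interaction 0.45 ± 0.09, edgeR, adjusted p = 0.00342), that of the row named *Hspa8* was larger (-0.81 ± 0.12, adjusted p = 0.00084), and that of *Hspd1* was smaller (0.41 ± 0.13, adjusted p = 0.0321). The *Hspd1* result was lost without the doubted library (adjusted p = 0.0642), where *Hspb1* gave 0.42 and *Hspa8* -0.80 and both passed. The *Hspb1* result was lost in 1 fit of all 33 libraries (0.47, edgeR, adjusted p = 0.145), where *Hspb1* passed for Trim AGU instead (0.71, adjusted p = 0.0251). In AABR07070032.1 the interaction was 0.02 (edgeR, adjusted p = 0.945). No member passed in edgeR for Plus A (0.0193% of all genes called and 0.0385% past the test), Trim A (0.605 and 0.811%) or Trim AGU (0.966 and 0.966%). Each had 2 members at an unadjusted p under 0.05, and DESeq2 passed 1, 0 and 0.

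Some pairs of members also varied together, or in opposite directions, from library to library. Over the 33 libraries *Bag3* and *Hspd1* had a Pearson r of -0.83 on log2(CPM + 1), and -0.83 again once each group's mean was removed. Within Hypoxia Trim AG the library with the least *Bag3* (95.2 CPM) had the most *Hspd1* (780 CPM), and the library with the most *Bag3* (142 CPM) had the least *Hspd1* (595 CPM). The same order held in Hypoxia Trim A, at 168, 129 and 140 CPM of *Bag3* and 538, 668 and 645 CPM of *Hspd1*. It did not hold in every group. Hypoxia MC 2 had the most of both genes in its group (202 CPM of *Bag3* and 438 CPM of *Hspd1*). Normoxia Trim AG 2 had the least of both in its group (119.5 and 683 CPM). *Cryab* and *Hspd1* had r = 0.75 and *Cryab* and *Bag3* r = -0.69 with group means removed. Other pairs were near 0 by the same measure, such as *Dnajb1* and *Hspd1* (r = -0.02). These are descriptions, as values from 1 library share its depth and composition.

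**Figure D5:**
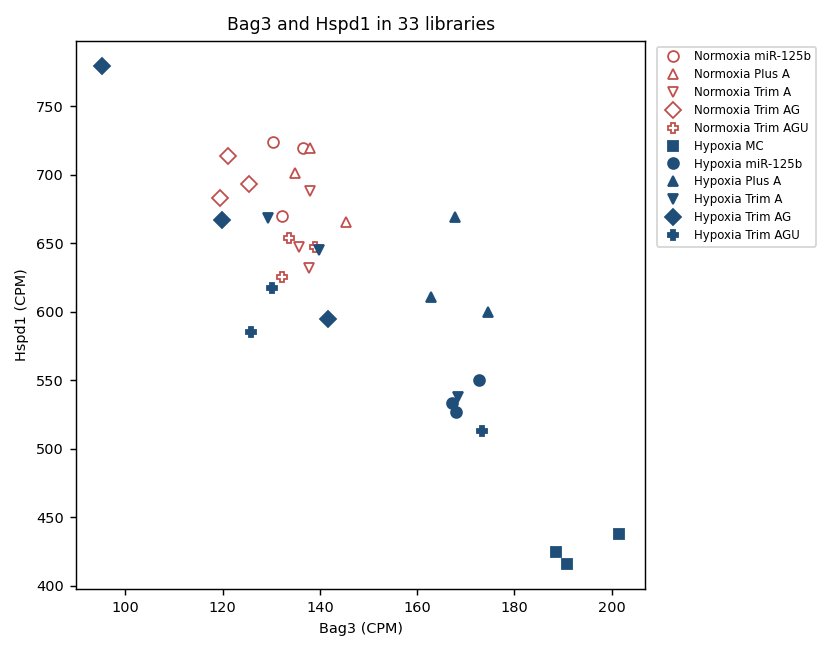
CPM of Bag3 (horizontal axis) and of Hspd1 (vertical axis) in each of the 33 libraries, with open red symbols for normoxia and filled blue symbols for hypoxia, and 1 symbol shape per mimic. The Hypoxia MC libraries lie at the lower right, with 188 to 202 CPM of Bag3, and Hypoxia Trim AG 2 at the upper left, with 95.2 CPM of Bag3 and 780 CPM of Hspd1.

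The genes most like 3 of the members over the 33 libraries were read from 13162 genes. For *Hspb1* they were *Timp1* (an inhibitor of matrix proteases, r = 0.950), *Acadl* (a mitochondrial fatty acid dehydrogenase, r = 0.934) and *Got1* (an aspartate aminotransferase, r = 0.933). For *Hspb8* they were *Itga6* (an integrin, r = 0.870), *Stat3* (a transcription factor, r = 0.868) and *Epb41l4a* (r = 0.861). For *Hspa1b* they were *Snrnp70* (a splicing factor, r = 0.882), *Hk2* (a hexokinase, r = 0.868) and *Mk1* (r = 0.850).

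The wider chaperone network, 66 tested genes of 7 lists, rose more often than it fell against MC in hypoxia. The counts called higher and lower were 7 and 4 under miR-125b, 12 and 6 under Plus A, 15 and 4 under Trim A, 21 and 4 under Trim AG and 23 and 4 under Trim AGU. Over all genes, 9.43% were called higher and 12.5% lower under miR-125b, 10.5 and 14.4% under Plus A, 12.4 and 15.7% under Trim A, 17 and 20.2% under Trim AG and 11.4 and 12.4% under Trim AGU. The lists were chosen with earlier results of these data known, and their counts are no independent evidence of a direction. *Hsf1* itself, the transcription factor, was at 70.6 ± 1.0 CPM (SD, n = 3) in MC and passed as higher under miR-125b (0.23 ± 0.04) and Plus A (0.26 ± 0.05), but was not called under any mimic.

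All 8 subunits of the TRiC chaperonin, which folds actin and tubulin, passed as higher than MC under each of the 4 isomiRs, and 7 under miR-125b. Over all genes, 59.5% passed in either direction under miR-125b, 56.6% under Plus A, 52.1% under Trim A, 59.4% under Trim AG and 29.9% under Trim AGU. These shares count both directions and are no like measure for higher genes alone. Of the 8 subunits, 0 were called higher under miR-125b, 2 under Plus A, 2 under Trim A, 5 under Trim AG and 6 under Trim AGU. The shares of all genes called higher are given above. *Tcp1* differed by 1.11 and *Cct3* by 1.09 under Trim AG (edgeR, adjusted p = 4.7e-05 and 2.9e-05). Of the 7 mitochondrial chaperones other than *Hspd1*, 0 were called higher and 1 lower under miR-125b, 2 and 1 under Plus A and again under Trim A, and 3 and 0 under Trim AG and again under Trim AGU, beside the shares of all genes called higher and lower given above. *Hspa9*, the mitochondrial HSP70, rose from 314 to 635 CPM under Trim AG (1.08 ± 0.09, edgeR, adjusted p = 1.5e-05).

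The other small heat shock proteins divided. *Hspb6*, a muscle form, rose under each mimic, from 45.6 CPM in MC to 110.5 CPM under miR-125b (1.31 ± 0.05, edgeR, adjusted p = 3.9e-09) and 135 CPM under Trim AG. *Hspb7*, another muscle form, was at 35.5 CPM in MC and fell to 10.9 CPM under Trim AG (-1.64 ± 0.12) and 13.2 CPM under Trim AGU (-1.28 ± 0.14). *Hspb2* fell from 34.6 to 22.1 CPM under miR-125b (-0.61 ± 0.05). Among the partners of HSP90, *Unc45b*, the myosin chaperone of striated muscle, fell from 22.1 CPM in MC to 2.17 CPM under miR-125b (-3.31 ± 0.17) and differed by -4.39 ± 0.18 under Trim AG. The skeletal marker sums given above were lower than in MC, as were *Hspb7*, *Hspb2* and *Unc45b* here, whereas *Hspb6* was higher. The part of the skeletal markers was not tested.

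Of the HSP70 and partner list, 1 of 16 genes tested was called higher under miR-125b (9.43% of all genes), 3 under Plus A (10.5%), 4 under Trim A (12.4%), 7 under Trim AG (17%) and 7 under Trim AGU (11.4%), and 0 were called lower under any. Under Trim AG *Bag2* (1.05), *Bag1* (0.82) and *Dnaja2* (0.74) differed the most. *Dnaja4*, a J-domain gene that HSF1 is known to induce, fell under every mimic, from 34.1 CPM in MC to 22.7 CPM under miR-125b (-0.55 ± 0.06). Among the chaperones of the endoplasmic reticulum, *Dnajb9* and *Hspa5* rose under miR-125b by 0.65 and 0.61, and *Dnajb9* by 1.28 under Trim AG. *Canx* rose by 0.79 under miR-125b and differed by 0.09 (edgeR, adjusted p = 0.36) under Trim AG.

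Between oxygen levels, 65 genes of the same lists were tested, and 3 were called higher and 4 lower in hypoxia under miR-125b, 2 and 7 under Plus A, 5 and 7 under Trim A, 8 and 6 under Trim AG and 9 and 11 under Trim AGU. Of all genes, 9.34 and 11.5%, 10 and 12.8%, 12 and 14.5%, 15 and 17.8%, and 13.6 and 13.4% were called higher and lower in the same order. *Lonp1*, a mitochondrial protease and chaperone, rose from 214 to 435 CPM under miR-125b (0.94 ± 0.05, edgeR, adjusted p = 8.7e-07). *Hspb7* fell from 41.3 to 26.1 CPM and *Bag2* from 120 to 83.0 CPM. The small heat shock proteins *Hspb1*, *Hspb8* and *Hspb7* were thus each called lower in hypoxia under miR-125b, and *Hspb11* was called higher (0.85 ± 0.16). *Cryab* passed the test but was not called. Of the 4 genes tested in the list of other small heat shock proteins, 1 was called lower and 1 higher.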

How the data were processed

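RNA of H9C2 cells was sequenced as non-stranded poly-A libraries. The submitters' processing notes name HISAT2 and StringTie, and versions and genome build are not given in the sources used here. The authors deposited 12 tables of pairs of groups, and 11 give raw counts and FPKM per library, so the 33 libraries were joined by gene identifier. The authors' FPKM values serve for levels between genes. In the twelfth table, the authors' group means (deposited as normalised signal) cover Normoxia MC, whose libraries were not analysed here. Columns of the authors' own comparisons (log2 fold changes, p-values) were not used. CPM are counts scaled to the library total.

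Pairs of groups were tested with edgeR 4.0.16 (R 4.3.3; TMM scaling, filterByExpr, glmQLFit and glmQLFTest), with Benjamini-Hochberg adjustment over all genes tested, and called at an adjusted p under 0.05 and a fold of 1.5. The interaction was fitted on 12 libraries. SE is the log2 fold change divided by the root of F. Alternatives were DESeq2 1.42.0, library-size scaling, no filter, 1 fit of 33 libraries, a replicate block, other fold thresholds, each library left out in turn, and the 2 doubted libraries left out. Simulated counts for hypoxia against normoxia under miR-125b (14843 genes, 200 changed) were scored by the adjusted p alone, without the fold threshold. There 50.8% of 1.5-fold and 72.8% of 2-fold changes were recovered, and 8.46% of the genes that passed were false. Far more genes passed in the data (50.8% of all genes) than were changed in the simulation. These shares therefore do not describe the calls reported here.

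The members and lists were chosen with earlier results of these data known. Named from each list were up to 3 called genes per comparison with the largest change and a mean of at least 1 CPM, with *Hsf1* and *Hspa1a* always named. For *Hspa1b*, *Hspb1* and *Hspb8*, the 3 genes with the highest r were named. Other values of a gene so named are given beside it, and *Cav1* and the unnamed loci were chosen after their values were seen. The labels do not say that replicates were separate cultures, so p-values measure the spread between these samples, which may be technical. Without strand, reads of overlapping and antisense genes cannot be told apart.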

Additional observations from a re-analysis of the deposited data

Results flagged for a closer look

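In 3 genes the oxygen difference under Trim AG differed from that under miR-125b by a test of the difference itself (edgeR's interaction term). These were 30% of the members, and 22.7% of all genes passed the same test. Whether the share of members exceeded that of all genes was not tested. For *Hspb1* the log2 difference between the oxygen effects was 0.45, for *Hspd1* 0.41 and for the row named *Hspa8* -0.81. The *Hspb1* and *Hspa8* results passed in each fit that left out 1 library, but the *Hspb1* result was lost in 1 fit of all 33 libraries (adjusted p = 0.145), and the *Hspd1* result was lost in 9 of 12 fits that left out 1 library. AABR07070032.1, which holds most counts of the heat shock cognate protein, gave 0.02.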

How the results depend on the processing

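No member's difference changed direction while past the test under any alternative, and the fold threshold moved the counts of members called in 14 (none) and 12 (a fold of 2) of 22 comparisons. With no fold threshold they were 6, 6, 4, 8 and 2 against MC (in the order miR-125b, Plus A and the isomiRs by length trimmed), 4 (Plus A) and 7 (Trim AG) against miR-125b in hypoxia, 5 (Trim AG) in normoxia, 8, 6, 4, 6 and 2 between oxygen levels, and 3 for the Trim AG interaction. With a fold of 2 they were 0, 0, 0 and 1 against MC (miR-125b to Trim AG), 0 and 0 for Trim AG and Trim AGU in normoxia, 1, 1, 0, 0 and 0 between oxygen levels, and 0 for the Trim AG interaction. DESeq2 called 2 for Trim AGU against MC, where edgeR called 0, and its other 21 counts were within 1.5 times. Scaling by library size gave 1 for Trim AGU against MC and 1 for oxygen under Plus A. It moved the median of all genes by -0.14 in the former, by 0.11 in the latter and by -0.13 in the Trim AGU interaction. The oxygen differences of *Hsph1* and *Hspd1* under Plus A then missed the threshold (edgeR, adjusted p = 0.13 and 0.0535). With all 33 libraries in 1 fit, counts were 2 for Trim A and 2 for Trim AGU against MC, 0 for Trim AG in normoxia and 1 for the Trim AGU interaction. Without a filter on low counts, all 22 counts were within 1.5 times.

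Leaving out 1 library gave 1 to 2 (Plus A), 1 to 3 (Trim A), 4 to 5 (Trim AG) and 0 to 2 (Trim AGU) against MC, 1 to 2 for Trim AG against miR-125b in hypoxia, 0 to 1 for Trim AGU in normoxia, 2 to 3 (miR-125b), 1 to 2 (Plus A) and 0 to 2 (Trim AGU) between oxygen levels, and 0 to 1 for the Trim AGU interaction. Of 72 member results past the adjusted p, 51 stayed past it without any 1 library. Without the doubted libraries all 10 counts that use them were within 1.5 times. The causes of these changes were not tested.

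Groups share replicate numbers, but the numbers did not pair the libraries: in 0 of 18 comparisons did every same-numbered pair deviate together (r over 0.1, range -0.35 to 0.15). With the replicate block, 0 members in place of 1 were called between oxygen levels under Trim AGU, and the other 21 counts were within 1.5 times. Group means on TMM-scaled CPM moved by less than 1 SD in 88 of 110 cases. With 3 libraries per group, 1.5-fold differences were often missed in simulated counts for Trim AGU against MC (3.6% recovered, with 200 of 14753 genes changed). This was scored by the adjusted p alone. In the data 29.9% of all genes passed, so the simulated share does not describe the calls reported here.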

Other observations

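For normoxia, 1 deposited table gives the authors' group means of MC and Plus A without replicates or error. In it, the authors' means were 1131 for MC and 772 for Plus A in *Hspb8* (a ratio of 0.683), 17542 and 22401 in *Hspb1* (1.28), and 439 and 571 in the row named *Hspa8*. The ratio of Plus A to MC was 1.26 for *Hsph1*, 1.16 for *Hspd1*, 1.11 for the row named *Hsp90aa1*, 1.05 for *Cryab*, 1.02 for *Bag3*, 0.925 for *Hspa1b* and 0.887 for *Dnajb1*. The Normoxia Plus A group holds 1 of the doubted libraries.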
